A study of Zea mays with 7 samples.

Results

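A set of 28 maize genes, of 110451 in the count table, was at the floor of detection in every wild-type pool of ear primordia and had reads in every *Bif3/Bif3* pool. The genes were chosen from the counts themselves. Each had at most 3 counts in each of the 3 wild-type pools, at least 4 counts in each of the 4 *Bif3/Bif3* pools, and at least 40 counts over the *Bif3/Bif3* pools. The MADS-box genes *GRMZM2G052890* and *GRMZM2G102161* were set aside by name. Because the choice used the difference between the genotypes, that difference is described here for the 28 genes and not tested, and the lack of overlap between the genotypes is fixed by the choice.

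RNA-seq was performed on field-grown ear primordia of 3–4 mm in the B73 inbred background, an early stage at which the ear consists of meristems and the first lateral organs. The wild-type group comprised siblings of the mutants, in 3 pools, and the mutant group comprised *Bif3* ears picked by their mutant appearance, in 4 pools. Each pool held 3 ear primordia and is 1 biological replicate. All pools were sequenced as stranded mRNA libraries and carry no treatment. *Barren inflorescence3* (*Bif3*) is a dominant mutation that carries a tandem duplication with an extra copy of *ZmWUS1*. The study's methods give the mutants as homozygous, while the sample labels give no zygosity. The only allele came from an uncharacterized background and was repeatedly backcrossed to B73, so that donor DNA around the locus may differ between the genotypes together with the mutation.

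WUSCHEL is a homeodomain transcription factor that is made in a small group of cells below the stem cells of a meristem and keeps those stem cells undifferentiated. In flowering plants it both represses and activates other genes, and the stem cells answer with secreted CLAVATA3-type peptides that limit it. The WOX (WUSCHEL-related homeobox) family to which it belongs also holds genes of lateral organs, embryos and roots. A bulk library of whole primordia averages all of these cells, so that for every gene described here, more cells with a transcript and more RNA per cell cannot be told apart.

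The wild-type pools had from 41720131 to 56057512 counts in all and the *Bif3/Bif3* pools from 42481699 to 50824983, and the 10 most counted genes took at most 2.02% of a pool. At these depths 3 counts correspond to between 0.0540 and 0.0719 CPM (counts scaled to the library size, the unit of all levels given here) in a wild-type pool. A wild-type count of 0 therefore allows a level up to that value, and it does not show that a transcript was absent. *ZmWUS1* (*GRMZM2G047448*) had 23, 18 and 16 reads in wild-type against 190, 242, 171 and 637 in *Bif3/Bif3*, without overlap between the pools labelled wild-type and those labelled *Bif3*. *KN1*, a homeobox gene of meristem cells, was at 467 ± 43.1 CPM in wild-type (SD, n = 3) and 547 ± 53.8 CPM in *Bif3/Bif3* (SD, n = 4). Other genes of meristem zones and lateral organs differed more. *ZmOCL4* lay between 82.5 and 86.2 CPM in wild-type and between 48.7 and 65.9 CPM in *Bif3/Bif3*, *ZmLOG7c* between 16.1 and 24.6 CPM and between 9.64 and 13.9 CPM, and *ZmCLE7* between 0.630 and 1.08 CPM and between 2.38 and 17.6 CPM, all without overlap, whereas the genotypes overlapped for *ZYB15* and *ZmLOG7a*. Among genes of organs that could be mixed into a dissected ear, the summed level of 12 green leaf genes, of which 3 were at 0 everywhere, was between 42.4 and 52.9 CPM in wild-type and between 49.1 and 68.4 CPM in *Bif3/Bif3*. Most of the difference lay in *GRMZM2G306345*, at 17.2 ± 2.09 CPM in wild-type (SD, n = 3) and 28.9 ± 10.3 CPM in *Bif3/Bif3* (SD, n = 4), while *me3* (*GRMZM2G085019*) of the same list passed the threshold as lower, with 10.9 ± 0.946 CPM and 6.85 ± 0.714 CPM (edgeR adjusted p = 0.0174). Of 31 kernel genes, 29 had no count in any pool, and the rest summed to between 61.0 and 80.1 CPM in wild-type and between 54.0 and 86.6 CPM in *Bif3/Bif3*. The anther gene *ms26* was at 0.216 to 0.287 CPM in wild-type and at 0.113 to 0.282 CPM in *Bif3/Bif3*, and the part of other cell types in the levels of the 28 genes was not tested.

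The 28 genes were mostly low in *Bif3/Bif3* too. Together they had 88 counts in the 3 wild-type pools and 5283 counts in the 4 *Bif3/Bif3* pools, and 44.0% of the latter belonged to *GRMZM2G355342* alone. The *Bif3/Bif3* total of a gene was between 40 and 2326 counts with a median of 79.5. Only 11 genes reached 100 counts over the 4 pools, and 5 reached a mean of 1 CPM. Against a wild-type level of 3 counts per library, the genes were at least 3.504-fold to at least 201-fold higher in *Bif3/Bif3*, with a median bound of 6.997. Each bound is on the observed ratio and leaves out counting error. For *AC204352.3_FG012*, with 3 counts in each wild-type pool, the bound is the observed ratio itself. Of the 28 genes, 27 passed the threshold of the edgeR fit across all genes (fold change over 1.5, p under 0.05, adjusted p under 0.1). Across the 40650 genes fitted, 3.39% passed it in that direction. The rule used the same contrast, and nothing is read from the count of 27.

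**Figure D1:**
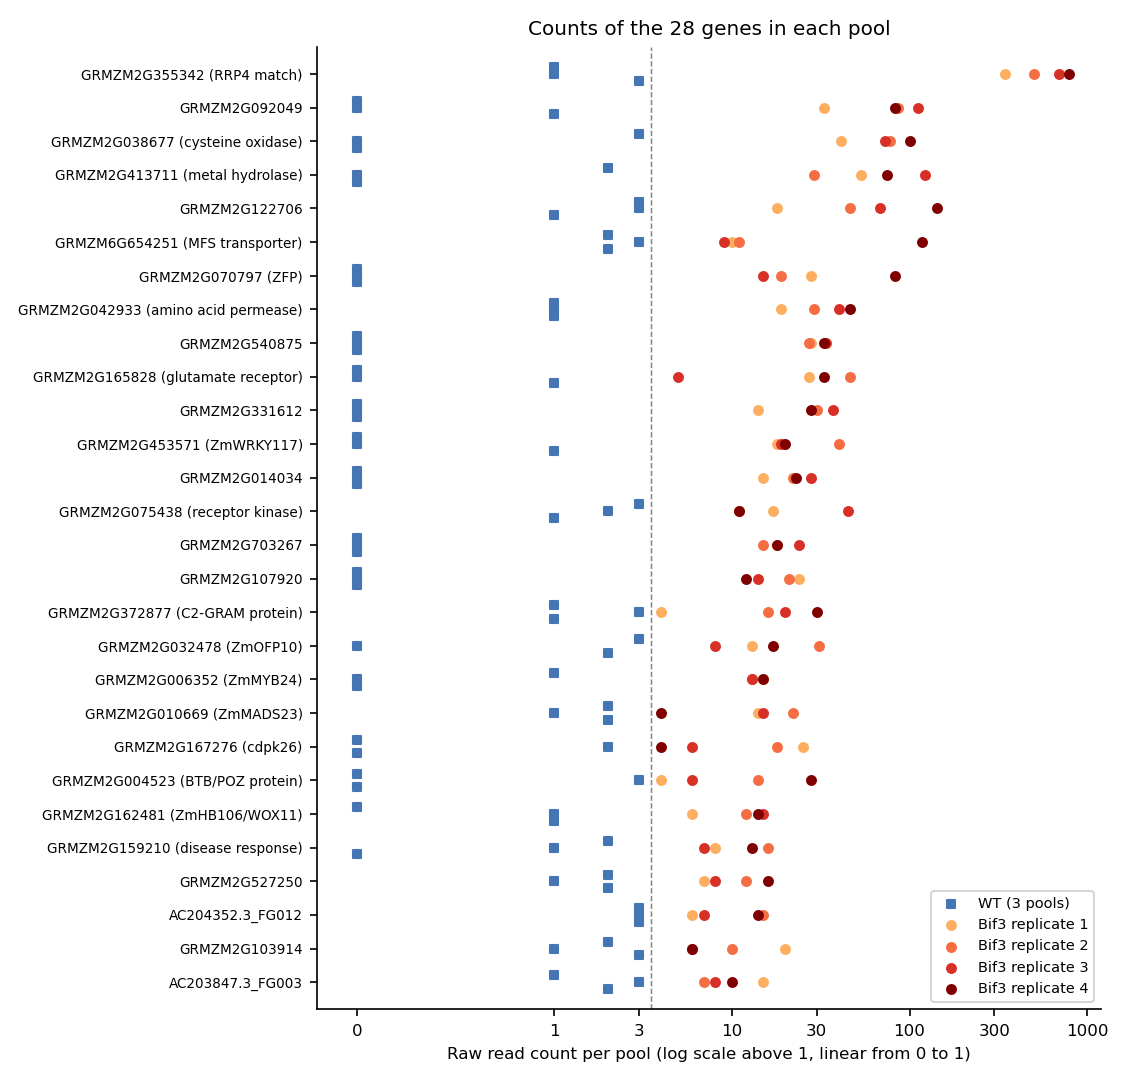
Raw read counts of the 28 genes, 1 gene per line from most to fewest *Bif3* counts, on an axis that is linear from 0 to 1 and logarithmic above. Blue squares are the 3 wild-type (WT) pools and circles are the 4 *Bif3* pools. The dashed line lies midway between the rule's limits of 3 counts in wild-type and 4 counts in *Bif3*. *GRMZM2G355342* stands to the right of the others with 344 to 789 counts per *Bif3* pool, and the counts of most genes lie below 100.

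An annotation was at hand for 17 of the 28 genes, from the annotation columns of the study's own list of changed genes. Of these, 6 were transcription factors or their partners, 6 belonged to membranes or signalling, and 5 were enzymes or other proteins. The other 11 had none. *AC204352.3_FG012* is not in that list.

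The transcription factor genes came from different families. Their bounds lay between at least 4.06-fold and at least 12.3-fold higher in *Bif3/Bif3*, with a median of 5.41. The highest was *GRMZM2G070797*, annotated as a zinc finger protein (ZFP), with no read in wild-type against 28, 19, 15 and 83 in *Bif3/Bif3* replicates 1 to 4. Its mean in *Bif3/Bif3* was 0.761 ± 0.620 CPM (SD, n = 4), and replicate 4 held 54.9% of its summed CPM. Its bound of at least 12.3-fold fell to at least 7.38-fold without that pool.

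*ZmWRKY117* (*GRMZM2G453571*) had 1, 0 and 0 reads in wild-type against 18, 40, 19 and 20 in *Bif3/Bif3*. WRKY proteins are plant transcription factors best known from defence and stress responses. The mean was 0.521 ± 0.219 CPM (SD, n = 4) and at least 8.40-fold higher than in wild-type. Replicate 2 stood above the other *Bif3/Bif3* pools, which were close to each other.

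*ZmOFP10* (*GRMZM2G032478*) had 2, 0 and 3 reads in wild-type against 13, 31, 8 and 17 in *Bif3/Bif3*. OVATE family proteins such as this are transcriptional repressors in Arabidopsis and shape organs in several plants. The gene was at least 5.94-fold higher, again with its highest count in replicate 2 and its lowest in replicate 3.

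*ZmMYB24* (*GRMZM2G006352*) had 0, 0 and 1 reads in wild-type against 15, 13, 13 and 15 in *Bif3/Bif3*. It is annotated by the Arabidopsis gene *MYB36*, which directs the differentiation of the root endodermis in that species. Its level of 0.302 ± 0.028 CPM (SD, n = 4) was the most even of the 28 genes, with a highest pool 1.23 times the lowest, and it was at least 4.87-fold higher than in wild-type.

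*ZmMADS23* (*GRMZM2G010669*) had 2, 1 and 2 reads in wild-type against 14, 22, 15 and 4 in *Bif3/Bif3*. Its annotation is *AGL5*, also called *SHATTERPROOF2*, a MADS-box gene of carpel and ovule identity in Arabidopsis. The gene was at least 4.84-fold higher, and its lowest *Bif3/Bif3* pool, replicate 4, stood at the limit of 4 counts.

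*ZmHB106* (*GRMZM2G162481*), annotated as *WOX11*, was the only member of the WOX family in the set. *WOX11* starts crown roots in rice and adventitious roots in Arabidopsis. It had 1, 1 and 0 reads in wild-type against 6, 12, 15 and 14 in *Bif3/Bif3*, a mean of 0.252 ± 0.084 CPM (SD, n = 4) that was at least 4.06-fold higher. A further gene with the annotation *WOX11*, *ZmHB130* (*GRMZM2G314064*), was singled out after its values were seen. It had no read in wild-type against 2, 21, 2 and 24 in *Bif3/Bif3*, so that replicates 1 and 3 kept it out of the set.

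The membrane and signalling genes were between at least 4.69-fold and at least 12.2-fold higher, with a median bound of 8.49. *GRMZM6G654251* encodes a transporter of the major facilitator superfamily, a large family of carriers for sugars, nitrate and other small molecules. It had 2, 3 and 2 reads in wild-type against 10, 11, 9 and 118 in *Bif3/Bif3*. Replicate 4 held 78.2% of its summed CPM, the largest share of a single pool in the set, while the other 3 pools were alike. The bound was at least 12.2-fold with this pool and at least 3.56-fold without it.

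*GRMZM2G042933*, an amino acid permease gene, had 1 read in each wild-type pool against 19, 29, 40 and 46 in *Bif3/Bif3*. Amino acid permeases carry amino acids into cells across the plasma membrane. Its mean was 0.716 ± 0.236 CPM (SD, n = 4) and at least 11.6-fold higher than in wild-type. All *Bif3/Bif3* pools were well above the wild-type pools.

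*GRMZM2G165828* encodes a glutamate receptor, a member of a family of calcium-permeable channels in plants. It had 1, 0 and 0 reads in wild-type against 27, 46, 5 and 33 in *Bif3/Bif3*. The gene was at least 9.54-fold higher on average, but replicate 3 was nearly as low as the rule permits, and its highest pool had 8.75 times the CPM of its lowest.

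*GRMZM2G075438* is annotated as *CRK10*, a cysteine-rich receptor-like kinase. Kinases of this family sit in the plasma membrane with an extracellular domain. It had 1, 2 and 3 reads in wild-type against 17, 11, 45 and 11 in *Bif3/Bif3*, with 54.4% of the summed CPM in replicate 3. The bound was at least 7.44-fold, and at least 4.52-fold without replicate 3.

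The calcium-dependent protein kinase gene *cdpk26* (*GRMZM2G167276*) had 0, 2 and 0 reads in wild-type against 25, 18, 6 and 4 in *Bif3/Bif3*. These kinases are switched on directly by calcium ions. It was at least 4.69-fold higher, and it was high in replicates 1 and 2 and low in replicates 3 and 4. *GRMZM2G372877*, whose protein has a C2 and a GRAM domain, both of which bind membrane lipids in many proteins, had 1, 3 and 1 reads in wild-type against 4, 16, 20 and 30 in *Bif3/Bif3*. It was at least 5.97-fold higher, and here replicate 1 was the lowest pool, close to its wild-type counts.

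The enzymes and other annotated proteins included the most abundant gene of the set. *GRMZM2G355342*, whose closest Arabidopsis annotation is *RRP4*, had 3, 1 and 1 reads in wild-type against 344, 503, 690 and 789 in *Bif3/Bif3*. *RRP4* encodes a subunit of the exosome, the complex that trims and degrades RNA from its 3′ end. The mean of 12.4 ± 3.88 CPM (SD, n = 4) was at least 201-fold higher than in wild-type, and the lowest *Bif3/Bif3* pool had more counts than all *Bif3/Bif3* pools together had for any other gene of the set. Replicates 3 and 4 were the highest and replicate 1 the lowest.

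*GRMZM2G038677*, annotated as plant cysteine oxidase, had 0, 0 and 3 reads in wild-type against 41, 78, 73 and 101 in *Bif3/Bif3*. In Arabidopsis, plant cysteine oxidases use oxygen to mark transcription factors of the hypoxia response for degradation. Its mean was 1.56 ± 0.460 CPM (SD, n = 4) and at least 25.2-fold higher. The metal-dependent protein hydrolase gene *GRMZM2G413711* had 0, 0 and 2 reads in wild-type against 53, 29, 122 and 75 in *Bif3/Bif3*, and was at least 24.4-fold higher. The first was lowest in replicate 1 and the second in replicate 2.

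*GRMZM2G004523* has a BTB/POZ domain, a protein interaction domain that in many plant proteins links targets to a ubiquitin ligase. It had 0, 3 and 0 reads in wild-type against 4, 14, 6 and 28 in *Bif3/Bif3*, with 51.9% of the summed CPM in replicate 4. The bound was at least 4.38-fold, and at least 2.81-fold without replicate 4. *GRMZM2G159210*, annotated as similar to a disease resistance response protein, had 0, 1 and 2 reads in wild-type against 8, 16, 7 and 13 in *Bif3/Bif3*, at least 3.79-fold higher, with all pools close to the limits of the rule.

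The 11 genes without annotation were between at least 3.504-fold and at least 27.2-fold higher. *GRMZM2G092049* was the second most abundant gene of the set, with 1, 0 and 0 reads in wild-type against 33, 86, 112 and 83 in *Bif3/Bif3*, a mean of 1.69 ± 0.721 CPM (SD, n = 4). *GRMZM2G122706* had 1, 3 and 3 reads in wild-type against 18, 46, 68 and 142 in *Bif3/Bif3*, and was at least 23.2-fold higher. It differed 7.002-fold in CPM between its lowest pool, replicate 1, and its highest, replicate 4. *GRMZM2G540875* had no read in wild-type against 28, 27, 34 and 33 in *Bif3/Bif3*, at least 10.6-fold higher and nearly level over the mutant pools. At the low end stood *GRMZM2G103914*, with 3, 1 and 2 counts against 20, 10, 6 and 6, then *AC204352.3_FG012*, with 3 counts in each wild-type pool against 6, 15, 7 and 14, and *AC203847.3_FG003*, with 2, 3 and 1 counts against 15, 7, 8 and 10. For these genes the margin between the genotypes was a few reads, and *AC204352.3_FG012* was the gene that did not pass the edgeR threshold.

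Among themselves the 28 genes differed in how many wild-type pools had no read, which does not rank their wild-type levels. No wild-type read was counted for 6 genes, a wild-type count was 0 in 2 pools for 8 genes and in 1 pool for 3 genes, and 11 genes had reads in every wild-type pool. The 6 genes without a wild-type read were the ZFP gene *GRMZM2G070797* and 5 genes without annotation, *GRMZM2G540875*, *GRMZM2G331612*, *GRMZM2G014034*, *GRMZM2G703267* and *GRMZM2G107920*, named here after their values were seen. The median *Bif3/Bif3* total was 98.5 counts for these 6 genes and 69.5 for the other 22, so counting error differs between them. The highest of the 4 *Bif3/Bif3* pools was at the median 2.04 times the lowest for these 6 genes and 3.51 times for the other 22. The same ratio had a median of 4.43 over the 17 annotated genes and 2.29 over the 11 genes without annotation, and these splits overlap, since 5 of the 6 genes lack an annotation.

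The mutant pools did not carry the set equally. A gene was called even where its highest *Bif3/Bif3* pool was at most 2 times its lowest in CPM, which held for 4 of the 28 genes, *ZmMYB24*, *GRMZM2G540875*, *GRMZM2G014034* and *GRMZM2G703267*. In 4 others, the transporter gene *GRMZM6G654251*, the ZFP gene, the receptor kinase gene and the BTB/POZ gene, at least 50% of the summed CPM lay in 1 pool. The remaining 20 were intermediate. Among the 13019 other genes with a *Bif3/Bif3* total in the same range, 72.8% were even and 1.90% had 50% or more in 1 pool, but most of those genes were more deeply counted, with a median total of 379.

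Counting error was therefore set beside the spread. The coefficient of variation over the 4 *Bif3/Bif3* pools had a median of 41.3% for the 28 genes, where Poisson counting alone would give 22.5%. The ratio of the observed to the Poisson value had a median of 2.12. Leaving out *GRMZM2G355342*, whose total is far above the rest, it was 2.07 over 27 genes and 1.51 over 5956 other genes with totals up to the next largest, 314. The ratio was above 2 for 51.9% of these 27 genes and for 28.3% of the other genes. At the other end, 2 of the 28 genes varied no more than Poisson counting. These values are descriptive, since the rule limits how low a *Bif3/Bif3* pool can be.

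**Figure D2:**
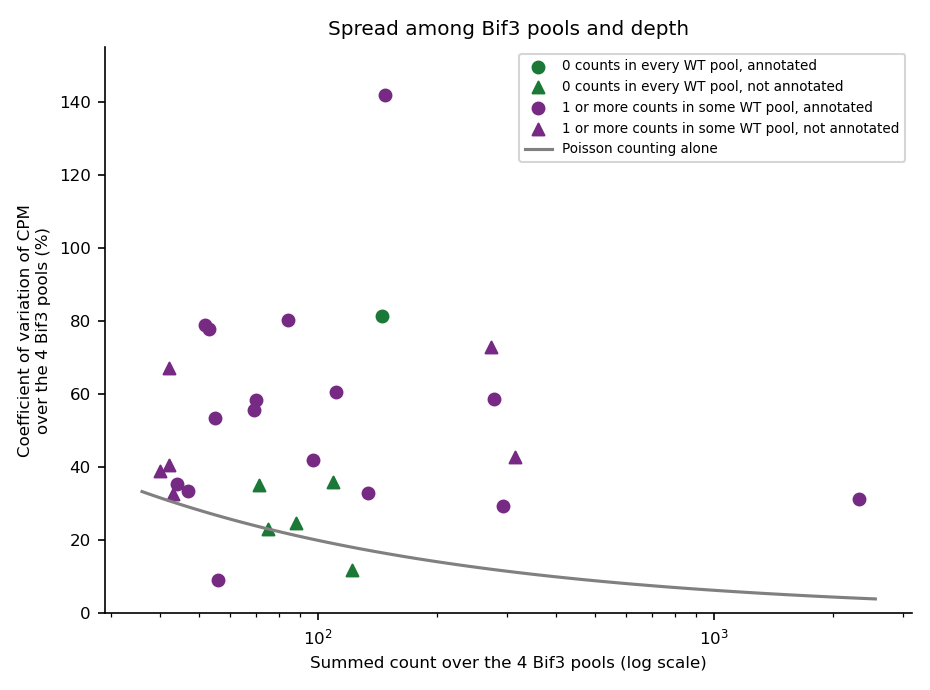
Coefficient of variation of CPM over the 4 *Bif3* pools (vertical axis, percent) against the summed *Bif3* count (horizontal axis, log scale) for the 28 genes. Circles are annotated genes and triangles genes without annotation, green marks genes without a wild-type read, and the grey line is the spread from Poisson counting alone; the highest point is *GRMZM6G654251*, and 2 genes lie below the line.

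Summed over the 28 genes, the level was 0.647, 0.522 and 0.641 CPM in wild-type against 19.1, 25.4, 32.5 and 36.0 CPM in *Bif3/Bif3* replicates 1 to 4. Without *GRMZM2G355342* the *Bif3/Bif3* sums were 11.3, 14.8, 17.1 and 20.1 CPM, in the same order of pools. The order was not shared by all genes. The highest pool was replicate 1 for 5 genes, replicate 2 for 6, replicate 3 for 8 and replicate 4 for 9. The lowest pool was replicate 1 for 12 genes (42.9%), replicates 2 and 3 for 5 genes each (17.9%) and replicate 4 for 6 (21.4%). Among the other genes in the same range of totals, replicates 1 to 4 were the lowest pool for 20.5%, 16.5%, 31.6% and 31.4%. The shares are not a comparison of like with like, since only the 28 genes had to reach 4 counts in each *Bif3/Bif3* pool.

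**Figure D3:**
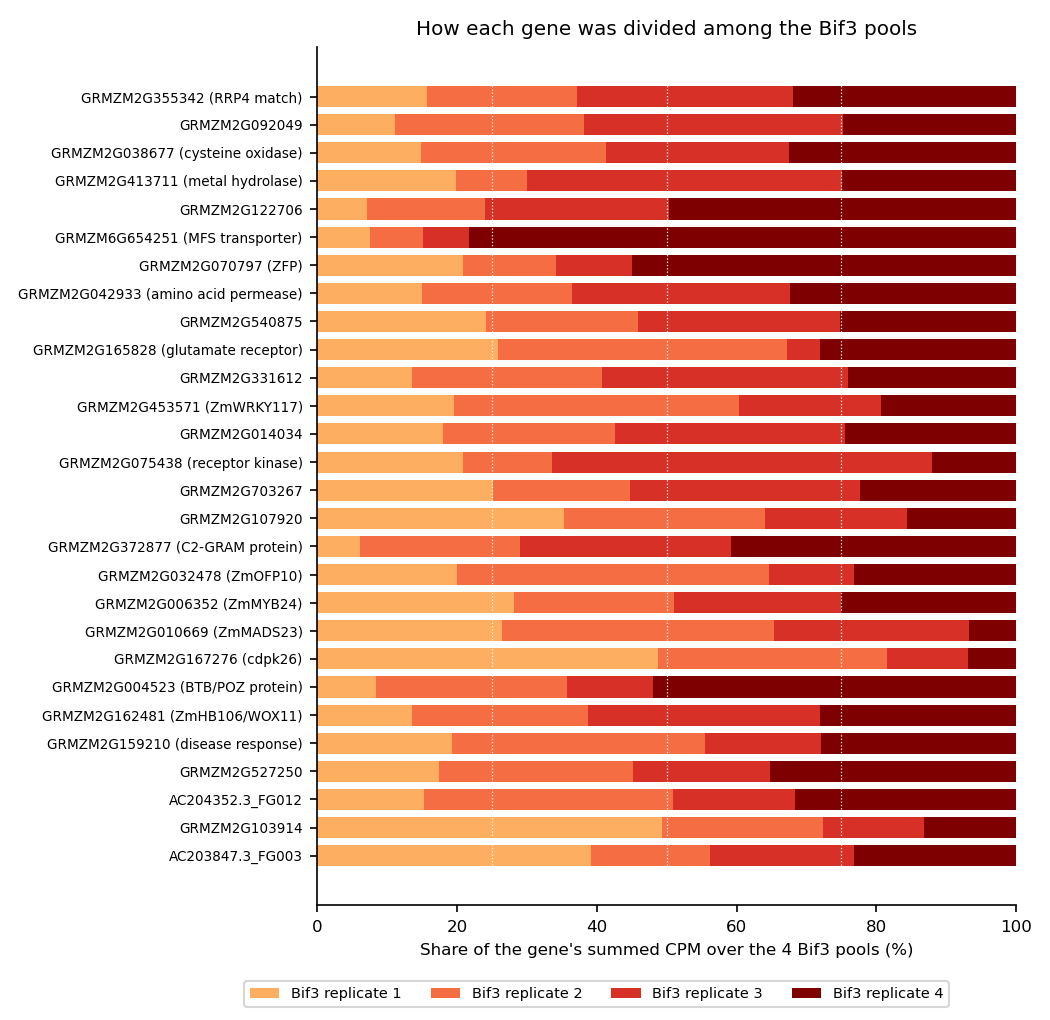
Share of each gene's summed CPM (horizontal axis, percent) in the 4 *Bif3* pools, 1 bar per gene in the order of the counts plot. Dotted lines stand where equal shares would end. The bar of *GRMZM6G654251* is 78.2% replicate 4, and that of *GRMZM2G075438* is 54.4% replicate 3, while those of *ZmMYB24* and *GRMZM2G540875* follow the dotted lines closely.

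The edge of the set is not sharp. A further 21 genes missed the rule only through 1 wild-type pool at 4 or 5 counts. The 3 of them with most *Bif3/Bif3* reads were *GRMZM2G072406*, with 5, 1 and 1 counts against 16, 24, 6 and 62, *GRMZM2G065989*, with 3, 2 and 5 counts against 24, 30, 13 and 19, and *GRMZM2G107380*, with 2, 0 and 4 counts against 19, 21, 8 and 33. A *Bif3/Bif3* total of 35 to 39 kept out 5 genes, among them *GRMZM2G400938*, with 3, 1 and 2 counts against 10, 11, 9 and 9, and *GRMZM5G831009*, with 1, 2 and 2 counts against 13, 10, 5 and 10. The next were tied at 35, *GRMZM2G349407*, *GRMZM2G504683* and *GRMZM5G843473*.

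A single *Bif3/Bif3* pool under 4 counts kept out 14 genes, and that pool was replicate 3 for 10 of them and replicate 4 for none. Another 13 genes had fewer than 4 counts in 2 or more mutant pools. An example, chosen after its values were seen, is *GRMZM2G110997*, with 356 counts in replicate 1 and none in the other mutant pools. With a pool left out there are fewer limits to pass, and the set grew to 48 genes when wild-type replicate 1 was dropped, to 86 when wild-type replicate 2 was, and to 53 when *Bif3/Bif3* replicate 3 was. When a *Bif3/Bif3* pool was dropped, the limit on the *Bif3/Bif3* total was also lowered in proportion.

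The MADS-box genes that were set aside differ in how they stand to the rule. *GRMZM2G052890* had 0, 0 and 2 reads in wild-type against 22, 103, 8 and 54 in *Bif3/Bif3* and would have been chosen. *GRMZM2G102161* had 13, 0 and 1 reads in wild-type against 218, 117, 184 and 238 in *Bif3/Bif3*, and its first wild-type pool alone would have kept it out.

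The opposite pattern was rarer, and lower genes were also fewer across the whole edgeR fit, with 1380 higher and 243 lower. The 2 rules are not equally strict, since the opposite one sets the ceiling of 3 counts on 4 pools instead of 3. Nothing is read from the difference in number. At most 3 counts in every *Bif3/Bif3* pool, at least 4 in every wild-type pool and at least 30 over the wild-type pools were met by 4 genes, of which 2 were WOX genes. *ZmWUS2* (*GRMZM2G028622*), the close relative of *ZmWUS1*, had 18, 10 and 7 reads in wild-type against 0, 0, 3 and 0 in *Bif3/Bif3*, at least 3.87-fold lower. *WOX2A* (*GRMZM2G108933*), whose Arabidopsis counterpart acts in the early embryo, had 9, 13 and 17 counts against 1, 2, 0 and 0, at least 4.07-fold lower. *GRMZM2G125561*, with 29, 4 and 4 counts against 0, 1, 2 and 1, and *GRMZM2G170302*, with 9, 20 and 9 counts against 2, 1, 1 and 0, were at least 4.36-fold and at least 3.89-fold lower. The number of such genes rested on *Bif3/Bif3* replicate 4, since 15 genes met the limits without it. It was 7 when wild-type replicate 3, *Bif3/Bif3* replicate 2 or *Bif3/Bif3* replicate 3 was dropped. When a wild-type pool was dropped, the limit on the wild-type total was also lowered in proportion.

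Other genes of the families to which the named members belong were tested in the edgeR fit across all genes. They were not chosen by the rule, except that *GRMZM2G052890* meets it and was set aside by name. The families were collected by gene symbol from a RefSeq gene table of assembly NAM-5.0. Over WOX, WRKY, MYB, MADS-box, OVATE and calcium-dependent kinase genes, 102 genes were tested. Of these, 6 rose (5.88%, against 3.39% of all genes) and 5 fell (4.90%, against 0.598% of all genes). Of the genes that the same table could place in gene order, 5.20% rose, which is the closer background. The share of those genes that fell is not given. The genes that rose include *ZmWUS1*, which the mutation duplicates, and both of the MADS-box genes that were set aside. The only others that rose were *GRMZM2G130374*, *GRMZM2G151444* and *GRMZM2G071620*. Among the genes that fell, *ZmWUS2* and *WOX2A* also meet the opposite rule above. The shares are therefore not free of the choice of genes. The total of 11 was 17 when wild-type replicate 2 was dropped, 7 when wild-type replicate 3 or *Bif3/Bif3* replicate 1 was, and 6 when *Bif3/Bif3* replicate 2 was.

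Of the 11 tested genes in the WOX list, 4 fell in edgeR and 3 in DESeq2, and *ZmWUS1* alone rose. The list was made by symbol and is not the whole family. It leaves out the member *ZmHB106* and does not hold *ZmHB130*, both described above with more reads in *Bif3/Bif3*. *ZmWUS1* went from 0.398 ± 0.132 CPM (SD, n = 3) to 6.52 ± 4.24 CPM (SD, n = 4), a log2 fold change of 4.05 ± 0.47 (SE, edgeR adjusted p = 0.00194). *wox3A* (*GRMZM2G122537*) had 374, 255 and 354 reads in wild-type against 167, 88, 139 and 98 in *Bif3/Bif3*, without overlap, and its log2 fold change was -1.36 ± 0.28 (SE, edgeR adjusted p = 0.0237). *WOX3* genes are known from the margins of lateral organs. *WOX2A* fell with an edgeR adjusted p of 0.0202, and *ZmWUS2* with 0.0550. *wox9C* (*GRMZM2G409881*) had 275, 198 and 257 counts against 103, 70, 138 and 153, a log2 fold change of -1.03 ± 0.27 (SE, edgeR adjusted p = 0.0635).

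The calls of *ZmWUS2* and *wox9C* depended on single pools. For *ZmWUS2* the edgeR adjusted p was 0.164 without wild-type replicate 1 and 0.133, 0.151 and 0.119 without *Bif3/Bif3* replicates 1, 2 and 4. For *wox9C* it was 0.183 and 0.170 without wild-type replicates 1 and 3, and 0.159 and 0.137 without *Bif3/Bif3* replicates 1 and 2. The calls of *ZmWUS1* and *wox3A* passed the threshold in every alternative, and that of *WOX2A* in every edgeR alternative that kept it. *WOX2A* and *ZmWUS2* were removed by the edgeR filter on low counts and received no adjusted p from DESeq2, so that neither alternative bears on them.

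Of 18 tested WRKY genes, 2 rose in edgeR and 3 in DESeq2, and none fell in either. At an unadjusted edgeR p under 0.05, 5 were higher and 1 was lower. The share of all genes at that limit is not given, so nothing is read from these counts. *GRMZM2G130374* went from 2.43 ± 0.614 CPM (SD, n = 3) to 4.79 ± 0.791 CPM (SD, n = 4), with a log2 fold change of 0.98 ± 0.21 (SE, edgeR adjusted p = 0.0298, and 0.124 without wild-type replicate 3). *GRMZM2G151444* had 34, 113 and 54 reads in wild-type against 295, 263, 68 and 176 in *Bif3/Bif3*. Its genotypes overlapped, since *Bif3/Bif3* replicate 3 lay below wild-type replicate 2, and its log2 fold change was 1.71 ± 0.45 (SE, edgeR adjusted p = 0.0659). The adjusted p of this gene was 0.175 and 0.215 without wild-type replicates 1 and 3, and 0.156 and 0.166 without *Bif3/Bif3* replicates 1 and 2.

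Of 27 tested MYB genes, *GRMZM2G171781* fell, from 5.56 ± 0.252 CPM (SD, n = 3) to 3.40 ± 0.516 CPM (SD, n = 4). Its log2 fold change was -0.71 ± 0.16 (SE, edgeR adjusted p = 0.0359, and 0.138 when wild-type replicate 3 was dropped and 0.116 when *Bif3/Bif3* replicate 2 was). Of 30 tested MADS-box genes, *GRMZM2G071620* rose besides the genes set aside. It had 2491, 1608 and 1612 reads in wild-type against 3743, 4171, 2800 and 2788 in *Bif3/Bif3*, which gave a log2 fold change of 0.86 ± 0.23 (SE, edgeR adjusted p = 0.0727). The adjusted p was 0.175 and 0.248 without wild-type replicates 2 and 3, and 0.149 and 0.188 without *Bif3/Bif3* replicates 1 and 2, and the call was also lost in the edgeR 4 form of the fit (0.104). None of 9 OVATE family genes and none of 7 calcium-dependent protein kinase genes passed the threshold in edgeR or DESeq2. At an unadjusted edgeR p under 0.05, 1 OVATE gene was higher, and 2 kinase genes were higher and 2 lower, again without a share of all genes beside them. *ZmOFP10* and *cdpk26* stood beside no other called gene of their lists. With 3.39% of all genes called higher and 0.598% lower, lists this short may hold none, and nothing is read from it.

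**Figure D4:**
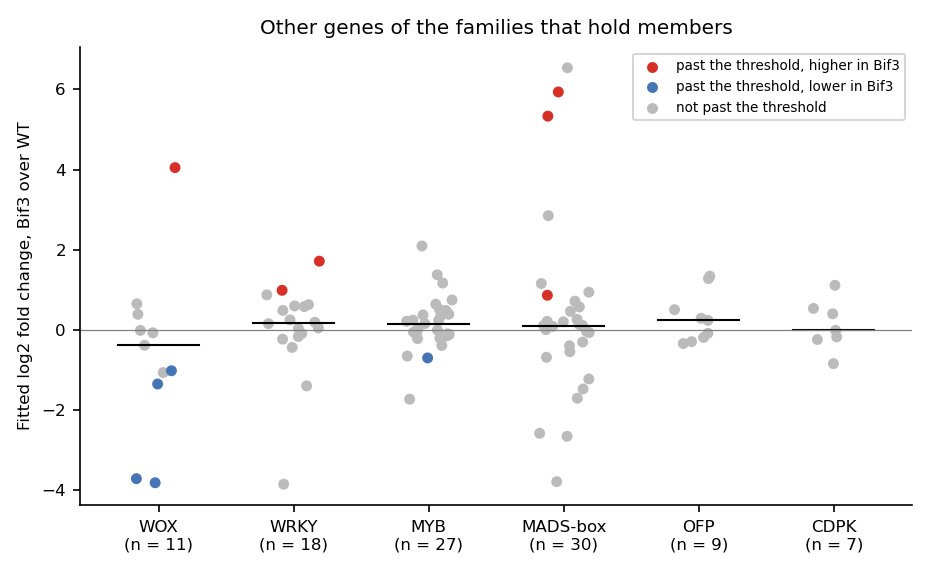
Fitted log2 fold change (*Bif3* over wild-type, vertical axis) of the other genes of 6 families, 1 point per tested gene, with the median of each family as a black bar. Red and blue points passed the edgeR threshold; the WOX column holds 4 blue points below 0 and *ZmWUS1* above it. Fitted values of genes at or near 0 counts in a genotype depend on the prior count and are not measured folds.

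Position was examined through gene order in the same NAM-5.0 gene table, since the counts use the earlier B73 v3 models. The table placed 17033 of the 40650 fitted genes and 11 of the 28 members, on 7 of 10 chromosomes. Among the 11 placed members, none was next to another in the order of placed genes. The chromosome of *ZmWUS1* held 2 of the 11 placed members and 11.8% of all placed genes. The amino acid permease gene *GRMZM2G042933* was 16 placed genes away from *ZmWUS1*, and *GRMZM2G159210* was 1605 placed genes away. For *GRMZM2G042933*, the mutation and linked donor DNA cannot be told apart. The members that were not placed, *GRMZM2G355342* among them, have no position here, so their distance from *ZmWUS1* is not known. Within 50 placed genes on either side of *ZmWUS1*, 4 of 99 genes rose (4.04%, against 5.20% of all placed genes). Another 4 of the 99 fell, whereas 0.598% of all 40650 fitted genes, placed or not, did so. Within 200 placed genes on either side, 14 of 283 rose (4.95%) and 6 fell. A part of linked donor DNA in these changes was not tested.

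The genes next to members were not chosen by the rule either. Of the 44 distinct genes that were the 2 nearest placed genes on either side of a member, 2 rose (4.55%, against 5.20% of all placed genes) and none fell, in edgeR and in DESeq2. At an unadjusted edgeR p under 0.05, 7 were higher and 3 lower. The share of placed genes at that limit is not given, so these counts have no background and nothing is read from them. Over the 5 nearest genes on either side, 9 of 110 rose (8.18%). *GRMZM2G431018*, near the receptor kinase gene *GRMZM2G075438*, rose from 12.7 ± 3.32 CPM (SD, n = 3) to 31.3 ± 4.69 CPM (SD, n = 4), with a log2 fold change of 1.30 ± 0.17 (SE, edgeR adjusted p = 0.00368). *GRMZM2G426415*, next to *GRMZM2G122706*, rose from 0.974 ± 0.218 CPM (SD, n = 3) to 1.83 ± 0.423 CPM (SD, n = 4), with a log2 fold change of 0.90 ± 0.26 (SE, edgeR adjusted p = 0.0887). The first passed in all alternatives, whereas the second was lost without any of the 3 wild-type pools (adjusted p = 0.186, 0.173 and 0.130 in edgeR without replicates 1, 2 and 3) and without *Bif3/Bif3* replicates 1, 2 and 4 (0.118, 0.170 and 0.170). It was also lost when every gene of the table was fitted (0.174).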

How the data were processed

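Counts per gene were deposited for 3 wild-type and 4 *Bif3* pools of ear primordia. Per the study's methods the authors trimmed reads with Trimmomatic, aligned them to B73 v3 with HISAT, and counted them with HTSeq-count, whereas the submitters' processing notes name TopHat2 2.1.1 and Cuffdiff. The deposited counts are whole numbers without normalization. Whether the counting used strand, and which annotation release it used, is not given in the sources used here, so reads of overlapping genes, antisense genes and near-identical copies may be misassigned. Samples were grouped by the labels. The difference between 2 pools of a genotype exceeded 95% Poisson limits for 35.4% to 57.1% of genes, so no pair of columns repeats a library. Any p-value sets the difference between the genotypes against the spread between pools, and it does not cover the spread between single ears.

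CPM values use TMM-scaled library sizes. The all-gene test was the quasi-likelihood fit of edgeR 4.0.16 (legacy form) in R 4.3.3, without covariate, on 40650 genes with at least 2 counts, with Benjamini-Hochberg adjustment. It called 1380 genes higher and 243 lower in *Bif3/Bif3*. On simulated counts with 200 genes changed by a log2 fold change of 1.58, it recovered 193 and called 7 of 40450 unchanged genes. DESeq2 1.42.0 recovered 195 and called 36. Recovery of genes near the floor of detection, or of other sizes of change, is not read from these numbers. A fold bound is the mean *Bif3/Bif3* CPM over the CPM of 3 counts per wild-type library, without an allowance for counting error.

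Named in full were the 10 members with most *Bif3/Bif3* counts, those with an annotation, those near *ZmWUS1*, the 3 with fewest counts, 3 genes just outside the wild-type limit and 3 just under the total, and the genes called among families and neighbours, at most 5 per group by size of change. The members and all lists were chosen with earlier results of these data known, and the OVATE and calcium-dependent kinase lists after the members were seen. Alternatives were DESeq2 size factors, no TMM, the edgeR 4 fit, DESeq2, every gene of the table, the edgeR filter on low counts, a replicate block, an adjusted p under 0.05, each pool left out, and other limits of the member rule. Paralog and promoter searches need sequences and were not run.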

Additional observations from a re-analysis of the deposited data

Results flagged for a closer look

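A pool far from the other mutant pools was found in 3 genes, by the gap between the highest pool and the next divided by the range over the 4 *Bif3/Bif3* pools. The 28 genes and *ZmWUS1* were examined, 29 in all, and a gap beyond the 95% critical value is met by chance in about 1 of 20 groups. The 28 were chosen with these same counts, so nothing is read from the number of genes found. For the transporter gene *GRMZM6G654251* this ratio was 0.985, with 118 counts in replicate 4 against 9 to 11 in the others. For *ZmWRKY117* (*GRMZM2G453571*) it was 0.952, with 40 counts in replicate 2 against 18 to 20. For *ZmWUS1* (*GRMZM2G047448*) it was 0.854, with 637 counts in replicate 4 against 171 to 242.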

How the results depend on the processing

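The size of the set follows its limits. It was 6, 12 and 69 genes with at most 0, 1 and 5 counts in every wild-type pool, 17 with at least 8 in every *Bif3/Bif3* pool, 74 and 14 with totals of at least 20 and 80, and 27 to 86 with a pool left out. Even genes numbered 2 and 15 at limits of 1.5 and 3 times. Genes of the opposite pattern numbered 3 to 15 with a pool left out. For the set and for the opposite pattern, the limit on the total was lowered in proportion when a pool it sums was left out. The median fold bound stayed between 6.73 and 7.66. With an adjusted p under 0.05, 891 genes were higher and 137 lower, 7 family genes passed and 1 neighbour. Leaving out a pool gave 687 to 1817 higher (687 without wild-type replicate 3, 713 without *Bif3/Bif3* replicate 2), 114 to 327 lower (137 when wild-type replicate 3 was dropped, and 142 and 114 when *Bif3/Bif3* replicate 1 or 2 was), 19 to 28 members, 6 to 17 family genes and 1 to 3 neighbours. Neighbours numbered 1 and 9 among the 1 and 5 nearest genes on either side, and 1 with every gene of the table fitted. No result reversed. Replicate numbers are shared by the genotypes, and the labels do not say whether they pair the samples. Same-numbered pools deviated together with r = -0.03, 0.47 and 0.27. For pools with different numbers r lay between -0.34 and 0.26. These values do not settle whether the numbers mark a pairing, and the main fit has none. With the replicate block 1994 genes were higher and 394 lower, with 27 members, 18 family genes and 3 neighbours. Alignment-length alternatives for paralogs were not run. Depth limits all genes of the set, whose wild-type levels cannot be ranked at 3 counts or fewer.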
